A study of Mus musculus with 6 samples.

Results

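The genes of the JAK, STAT and SOCS families that carry cytokine signals into the nucleus were examined in peritoneal macrophages (PMs) of lupus mice and control mice. The members were chosen by name and are Jak1, Jak2, Stat2, Stat3, Stat5a, Stat5b, Stat6, Socs1 and Socs3, that is 9 of the 32879 genes to which the deposited counts could be assigned. The counts of all RefSeq transcript records of a gene were summed, and 26 records belonged to the 9 genes. All 9 genes were found in the table.

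RNA from PMs, cell-sorted on surface markers that include CD11b and F4/80, was sequenced, with 1 library for each of 6 female mice, to compare transcription in diseased and healthy animals. The 3 control mice, aged 33, 33 and 30 weeks, came from a cross of NZW with BALB/c that does not develop lupus. The 3 diseased-BWF1 mice, aged 31, 31 and 34 weeks, came from a cross of NZB with NZW (BWF1) and were classed as diseased by antibodies against double-stranded DNA and by severe proteinuria. The labels and methods name no transgene or treatment for these mice. Strain and disease differ together between the groups, so that their effects cannot be told apart. Whole sorted populations were measured, in which fewer cells of a type and less RNA per cell cannot be told apart.

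Cytokine receptors of this class have no enzyme of their own. When a ligand binds, Janus kinases (JAKs) attached to the receptor phosphorylate it, and STAT proteins dock there, are phosphorylated in turn, form dimers and move to the nucleus to switch on genes. SOCS proteins are among those genes and close the loop, since they bind the receptors or JAKs and stop the signal. In macrophages, STAT3 relays IL-6 and IL-10, STAT6 relays IL-4 and IL-13, STAT5 relays GM-CSF, and STAT2 with IRF9 relays type I interferon. The activity of the kinases and STATs is set by phosphorylation, which RNA-seq does not measure.

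Promoter sequence is shown first for the members whose promoters hold letters that STAT complexes are known to bind. Among these, Socs3 and Stat2 were also among the members that varied most between mice. Stat5a, whose promoter held none of the letters searched for, varied widely too. Whether such letters and the spread between mice go together was not tested. RefSeq promoter windows (build GRCm38.p6, 250 bases before to 50 bases after a start site) were available for all 9 members. The windows were searched on both strands for TTCNNNGAA, the gamma-activated site read by STAT dimers, for GAAANNGAAA, the interferon-stimulated response element read by STAT2 with IRF9, and for TTCNNNNGAA, the site with a longer spacer that STAT6 prefers. Capitals mark the matches in these stretches, each of which is written 5′ to 3′ on the strand of its gene. Socs3 held TTCNNNGAA at chr11:117969492-117969540 (minus strand, 174 to 126 bases before the start site). Stat2 held GAAANNGAAA, here as its reverse complement, followed by TTCNNNNGAA without overlap at chr10:128270256-128270305 (plus strand, 242 to 193 bases before the start site). Socs1 held 2 overlapping matches of GAAANNGAAA at chr16:10785584-10785639 (minus strand, 103 to 48 bases before the start site).
Socs3: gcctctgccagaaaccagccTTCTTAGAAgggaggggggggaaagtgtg
Stat2: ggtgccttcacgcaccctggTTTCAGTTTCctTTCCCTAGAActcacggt
Socs1: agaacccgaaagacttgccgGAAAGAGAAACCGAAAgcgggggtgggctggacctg
Of 32851 mouse promoter windows of the same length, 8.3% held TTCNNNGAA, 3.44% held GAAANNGAAA and 6.95% held TTCNNNNGAA. Among the 9 members, TTCNNNGAA was present in 1 and GAAANNGAAA in 2. A match is a description of the sequence and not evidence of binding in these cells.

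Stat5b, Stat5a and Stat3 lie side by side on chromosome 11 (GRCm38.p6). Stat5b covers chr11:100780731-100859004 on the minus strand, Stat5a covers chr11:100859351-100885169 on the plus strand, and Stat3 covers chr11:100886806-100939594 on the minus strand. Only 346 bases separate Stat5b from Stat5a and 1636 bases separate Stat5a from Stat3. Socs3 lies on the same chromosome at chr11:117966079-117970336. Stat6 (chr10:127642955-127660987) and Stat2 (chr10:128270498-128292853) share chromosome 10, 609510 bases apart. Jak1 lies at chr4:101151974-101265282, Jak2 at chr19:29251803-29313095 and Socs1 at chr16:10783808-10785536.

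Stat5a and Stat5b are near copies, which matters for counting their reads. Of the 75-base sequences in their transcripts, the length of 1 read, 5.12% of those of Stat5a and 6.99% of those of Stat5b occurred in the other gene. Their coding sequences of 2394 and 2361 bases were identical at 90.71% of 2294 aligned bases, with a longest identical run of 324 bases. The second longest run, of 129 bases, starts at coding base 441 in both genes and is split over 2 exons in each (chr11:100865396-100874021 for Stat5a and chr11:100798703-100801516 for Stat5b). It is given here with its first 75 bases in capitals, because a read of that length from there could come from either gene. The last 90 coding bases are given beside it, with the stop codon in capitals (chr11:100883971-100884060 on the plus strand for Stat5a, chr11:100783096-100783185 on the minus strand for Stat5b), because none of the 16 75-base sequences in either end occurred in the other gene. All 3 sequences were read from GENCODE transcripts of build GRCm38 and are written 5′ to 3′ on the coding strand.
Shared by Stat5a and Stat5b: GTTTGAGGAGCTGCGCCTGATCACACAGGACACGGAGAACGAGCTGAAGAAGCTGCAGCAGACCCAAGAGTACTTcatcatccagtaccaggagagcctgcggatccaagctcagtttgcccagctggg
Stat5a coding end: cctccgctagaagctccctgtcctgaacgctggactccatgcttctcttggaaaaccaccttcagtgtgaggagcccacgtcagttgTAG
Stat5b coding end: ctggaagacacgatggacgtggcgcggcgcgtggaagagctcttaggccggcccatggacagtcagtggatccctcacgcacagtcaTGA
For Jak1, Jak2, Stat3, Stat6, Socs1 and Socs3, no 75-base sequence was shared with another gene, and for Stat2 the share was 0.113%.

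Total counts per mouse lay between 3629901 and 5003360, of which 89.1% to 93.0% fell on genes, and 3 counts corresponded to 0.652 to 0.888 CPM (counts scaled to a common total), a floor that covers counting error only. No library was a copy of another, since the closest pair of mice was 9.56 times the sampling variance apart. Control mouse 3 stood somewhat apart, at 22.9 to 34.7 times the sampling variance from the other mice, while pairs without it ranged from 9.56 to 27.1 times. All 9 macrophage markers passed the low-count filter, and none of them was called. Control and diseased-BWF1 values did not overlap for 5 of the 9, beside 20.8% of all genes tested. Among these 5, Timd4 had an estimate of -0.53 (SE 0.21, edgeR adjusted p = 0.334) and Icam2 one of -0.55 (SE 0.16, edgeR adjusted p = 0.198). Adgre1 (-0.17) and Lyz2 (-0.46) also had lower estimates, and Prg4 (0.29) had a higher one. The defining B cell, T cell, mast cell and mesothelial markers were at 13 counts or fewer per gene and mouse. Among neutrophil markers, whose summed level was 40.5 to 127 normalized counts per mouse, Ly6g and Retnlg were at 0 throughout. Of the monocyte markers, Ly6c2 had at most 1 count in a mouse, and the part of other cell types in the results was not tested.

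None of the JAK, STAT and SOCS genes was called different between diseased-BWF1 and control mice. A gene was called at a Benjamini-Hochberg adjusted p under 0.05 in edgeR's quasi-likelihood test and a fold change of at least 1.5. By this rule 0 of the 8 members tested were called, beside 1.22% of all 10505 genes tested (128 genes). Socs1 was too low to be tested. Without control mouse 3 the count was also 0, while 39 of all genes were called. No member had an unadjusted edgeR p under 0.05, against 13.2% of all genes tested, and DESeq2 also called 0 members, against 2.91% of the genes to which it gave an adjusted p. No member had control and diseased-BWF1 values that did not overlap, against 20.8% of all genes tested. In each direction, the calls were 0 members higher (0.4% of all genes tested) and 0 lower (0.819%). Diseased-BWF1 mice had the higher estimate for 4 members and the lower for 4. The median log2 fold change was 0.03 over these 8 and 0.01 over all genes tested.

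A missed threshold does not show that the groups were alike, so the intervals were examined. The 95% interval of the log2 fold change stayed within a 1.5-fold change either way (0.585 on the log2 scale) for 5 members, namely Jak1, Jak2, Stat3, Stat5b and Stat6. Such narrow intervals were found for 31.2% of all genes tested. For Stat2, Stat5a and Socs3 the interval reached beyond 1.5-fold, so that a change of that size cannot be told from none with these mice. The median absolute log2 fold change was 0.11 over the 8 members and 0.22 over all genes tested.

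**Figure D1:**
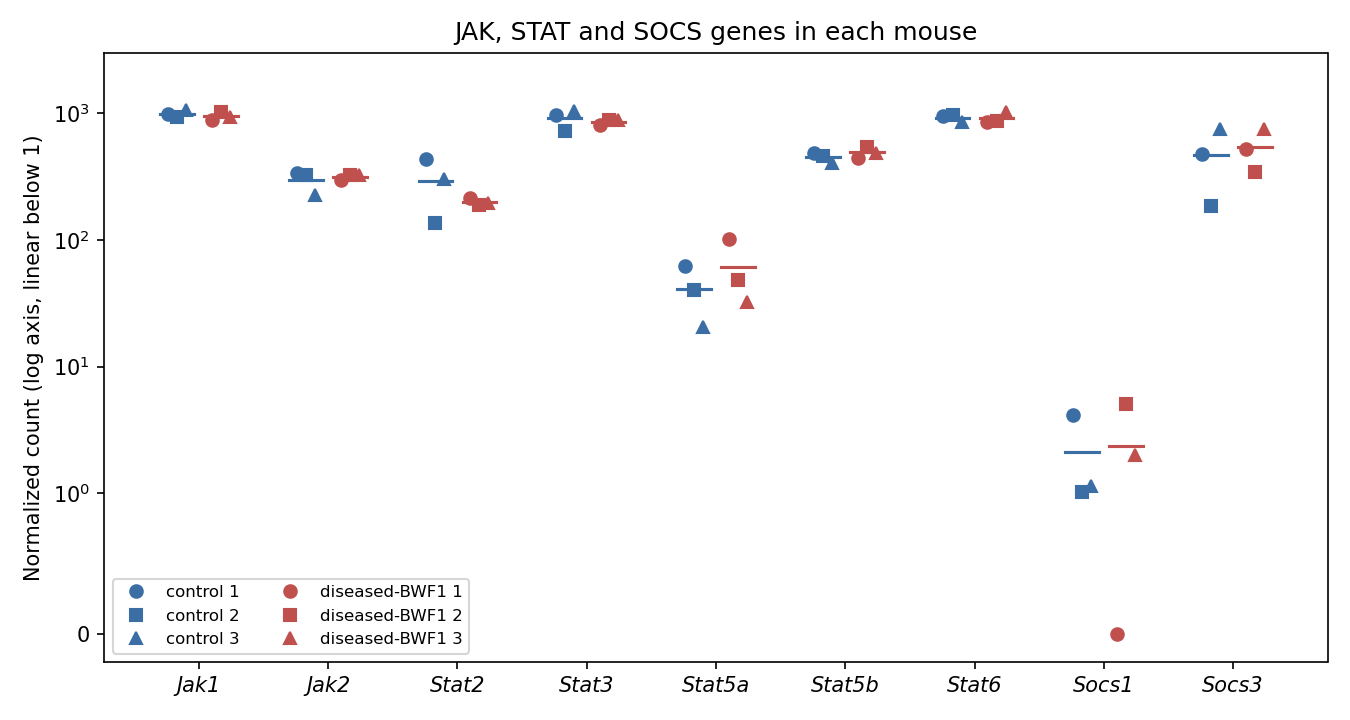
Normalized count of each gene (vertical axis, logarithmic above 1) in the 3 control mice (blue) and the 3 diseased-BWF1 mice (red); symbols show single mice and lines show group means. The groups overlap for all 9 genes, and Stat2, Stat5a and Socs3 show the widest spread between mice among the 8 genes tested.

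Neither of the receptor-bound kinases was called. Jak1, which serves interferon receptors and receptors of the gp130 and common gamma chain families, had 980.5, 933 and 1068 normalized counts in control mice. In diseased-BWF1 mice it had 892, 1028 and 939 normalized counts. The values interleaved, and the group means of 994 ± 68.4 and 953 ± 68.9 (SD, n = 3 each) differed by less than the spread between mice. The log2 fold change was -0.06 (SE 0.13, 95% interval -0.36 to 0.23, edgeR adjusted p = 0.872). The spread of Jak1 within groups was at percentile 7.19 of all genes tested, which made it the steadiest member.

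Jak2, the kinase of the GM-CSF, interferon gamma and growth hormone receptors, had 336, 328 and 225 normalized counts in control mice. It had 296, 328 and 324 normalized counts in diseased-BWF1 mice. Only control mouse 3 lay apart, below the other 5. Means were 296 ± 61.9 and 316 ± 17.7 (SD, n = 3 each), with a log2 fold change of 0.09 (SE 0.17, 95% interval -0.31 to 0.48, edgeR adjusted p = 0.871). Without control mouse 3 the estimate changed sign to -0.07.

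The same mouse also differed in which Jak2 records took the counts. The curated record NM_008413.3 held 62.3% to 71.9% of the Jak2 counts in the other 5 mice but 13.3% in control mouse 3. There the predicted record XM_017318068.1 held 63.8%, against 6.85% to 16.3% in the others. With curated mRNA records alone, Jak2 had a log2 fold change of 0.44 with an SE of 0.65 (edgeR adjusted p = 0.876). Whether these shares come from the transcripts or from the assignment of reads was not tested.

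**Figure D2:**
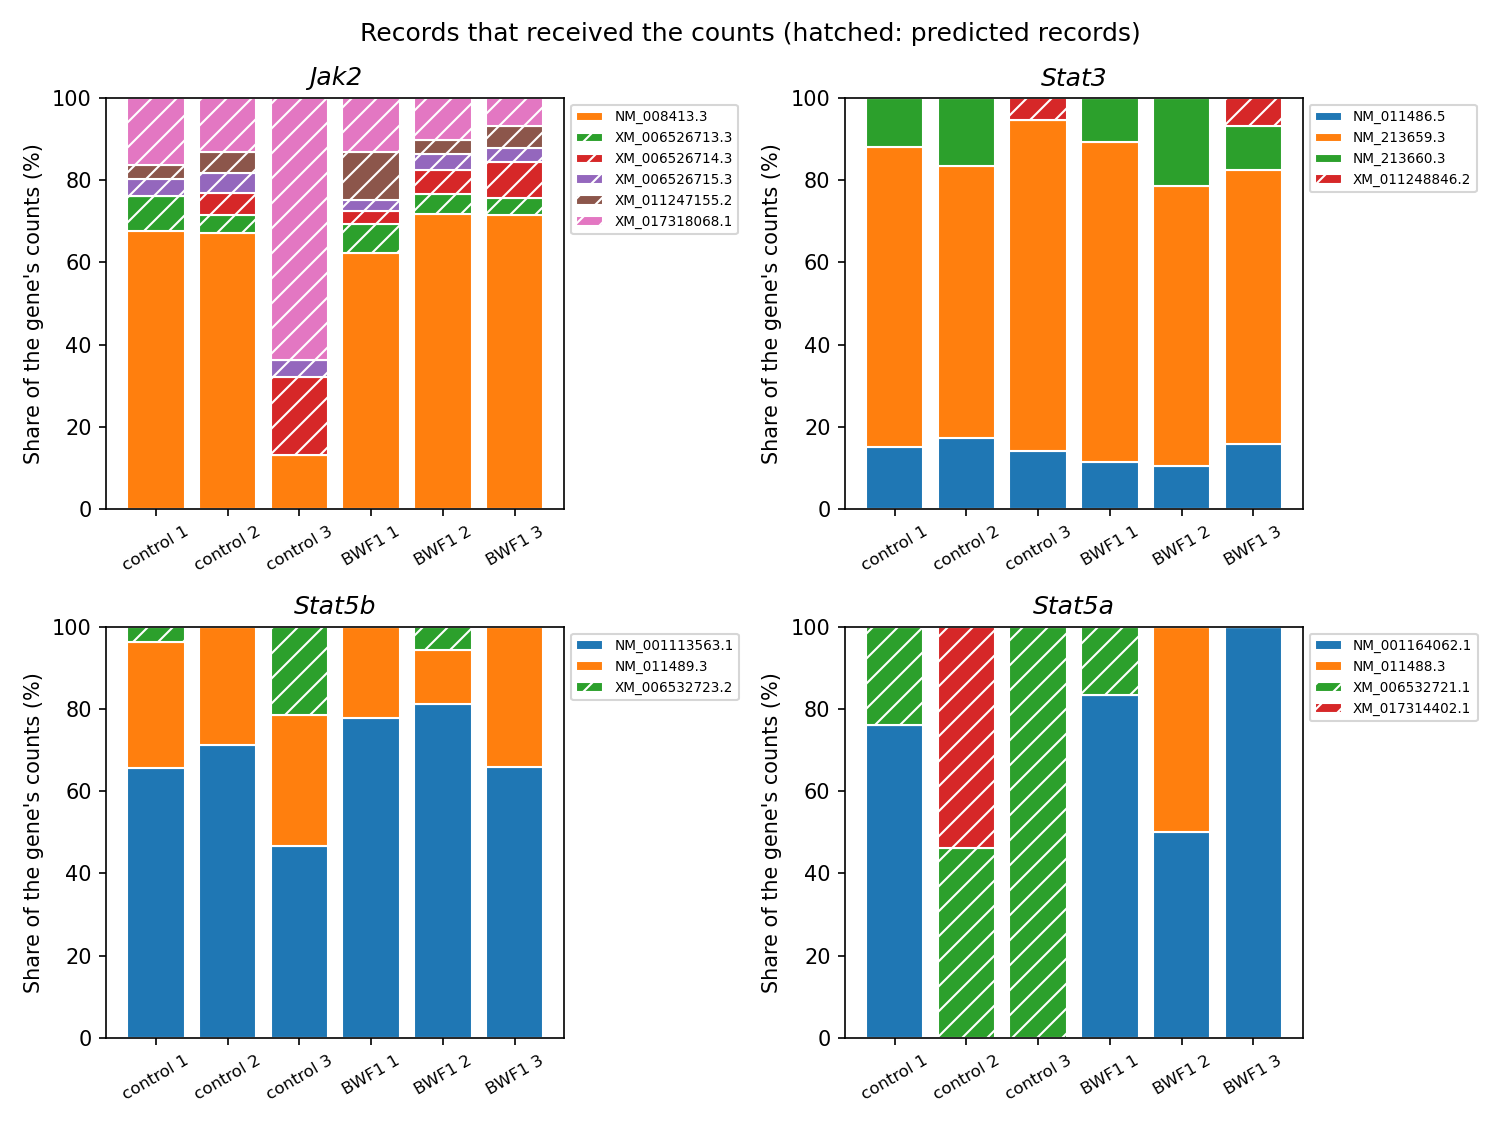
Share of the counts of Jak2, Stat3, Stat5b and Stat5a (percent, vertical axis) that each RefSeq record received in each mouse (horizontal axis; BWF1 is diseased-BWF1); plain bars are curated records and hatched bars predicted records. Control mouse 3 differs from the other mice for Jak2, and the Stat5a records differ from mouse to mouse.

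Stat3 and Stat6 had the most counts per kilobase among the STAT members, and neither was called. Stat3 had 975, 724 and 1052 normalized counts in control mice. In diseased-BWF1 mice it had 804, 879 and 889 normalized counts. The 3 diseased-BWF1 values lay inside the range of the controls. Means were 917 ± 171 and 857 ± 46.6 (SD, n = 3 each), and the log2 fold change was -0.10 (SE 0.17, 95% interval -0.49 to 0.29, edgeR adjusted p = 0.841). It was 0.01 without control mouse 3.

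The form of Stat3 could be followed in part, because its curated records encode proteins of 770, 769 and 722 residues, the shortest of which lacks most of the carboxy-terminal transactivation domain and is known as STAT3 beta. The 770-residue form NM_213659.3 held 66.1% to 80.7% of the Stat3 counts in every mouse. The 722-residue form NM_011486.5 held 14.1% to 17.3% in control mice and 10.5% to 15.9% in diseased-BWF1 mice, and these ranges overlap. The 769-residue form NM_213660.3, which differs by a single residue, held 0% in control mouse 3 and 10.7% to 21.4% in the other mice.

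Stat6, the STAT of IL-4 and IL-13, had 952, 967 and 858 normalized counts in control mice. It had 854, 868 and 1028 normalized counts in diseased-BWF1 mice. Both groups covered nearly the same range. Its log2 fold change of -0.02 (SE 0.13, 95% interval -0.33 to 0.29, edgeR adjusted p = 0.975) was the smallest among the members, and all of its counts fell on 1 curated record.

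Per kilobase, Stat5b was higher than its neighbour and near copy Stat5a in all 6 mice. Stat5b had 483, 457 and 409 normalized counts in control mice and 443, 547 and 486 in diseased-BWF1 mice. The ranges overlapped, with means of 450 ± 37.7 and 492 ± 52.3 (SD, n = 3 each). The log2 fold change was 0.13 (SE 0.13, 95% interval -0.19 to 0.44, edgeR adjusted p = 0.744).

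Stat5a had 62.1, 40.1 and 20.7 normalized counts in control mice. It had 102, 48.6 and 32.3 normalized counts in diseased-BWF1 mice. The highest value, in diseased-BWF1 mouse 1, set the difference between the means of 40.9 ± 20.7 and 61.0 ± 36.5 (SD, n = 3 each). The log2 fold change of 0.56 (SE 0.51, 95% interval -0.64 to 1.75, edgeR adjusted p = 0.703) became -0.04 without that mouse. Its spread within groups was at percentile 93.1 of all genes tested.

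The split between the 2 genes was followed as the share of Stat5a in the sum of Stat5a and Stat5b counts. This share was 11.4% (95% Wilson interval 9.18 to 14.0), 8.08% (5.96 to 10.8) and 4.81% (3.07 to 7.48) in control mice. In diseased-BWF1 mice it was 18.7% (15.7 to 22.1), 8.16% (6.21 to 10.7) and 6.23% (4.44 to 8.66). Several of these intervals do not overlap within a group, so those mice differed by more than the counting error that the intervals cover. The intervals do not cover how reads were divided among records, which is not given in the sources used here. The group means of 8.09% ± 3.28 and 11.04% ± 6.72 (SD, n = 3 each) differed by less than the spread between mice (exact two-sided permutation test, p = 0.6, where the smallest p that 3 against 3 mice allow is 0.1). With curated records alone the share was 0% in control mice 2 and 3, whose Stat5a counts were all assigned to predicted records, and the difference was 7.25 percentage points (exact two-sided permutation test, p = 0.3).

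Stat2, which serves type I and type III interferon signalling, gave the largest estimate toward lower levels and the most unequal spread. It had 436, 137 and 301 normalized counts in control mice. It had 215, 190 and 198 normalized counts in diseased-BWF1 mice. The 3 diseased-BWF1 mice lay close together inside a wide control range, with a coefficient of variation of 6.36% against 51.5%. Means were 201 ± 12.8 and 291 ± 150 (SD, n = 3 each), and the log2 fold change was -0.54 (SE 0.37, 95% interval -1.39 to 0.32, edgeR adjusted p = 0.587). The estimate was -0.13 without control mouse 1 and -0.87 without control mouse 2, where the edgeR adjusted p of 0.178 was the smallest of any member in any alternative.

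Of the inhibitors Socs1 and Socs3, the former was barely detected. Socs1, which blocks JAKs downstream of interferon receptors, had 5, 1 and 1 raw counts in control mice and 0, 5 and 2 in diseased-BWF1 mice. Its level was at or near the floor of 3 counts in every mouse, so no fold change is given and a difference was not detectable at this depth.

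Socs3, which blocks gp130 receptors and is itself induced by STAT3, had 476, 185 and 753 normalized counts in control mice. It had 521, 347 and 758 normalized counts in diseased-BWF1 mice. Each group held 1 low, 1 middle and 1 high mouse, so that Socs3 ranged 4.10-fold over the 6 mice with the groups almost on top of each other. Means were 471 ± 284 and 542 ± 206 (SD, n = 3 each), and the log2 fold change was 0.20 (SE 0.49, 95% interval -0.94 to 1.34, edgeR adjusted p = 0.901). The estimate was 0.71 without control mouse 3, -0.18 without control mouse 2 and -0.12 without diseased-BWF1 mouse 3. Its within-group spread was at percentile 93.6 of all genes tested.

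**Figure D3:**
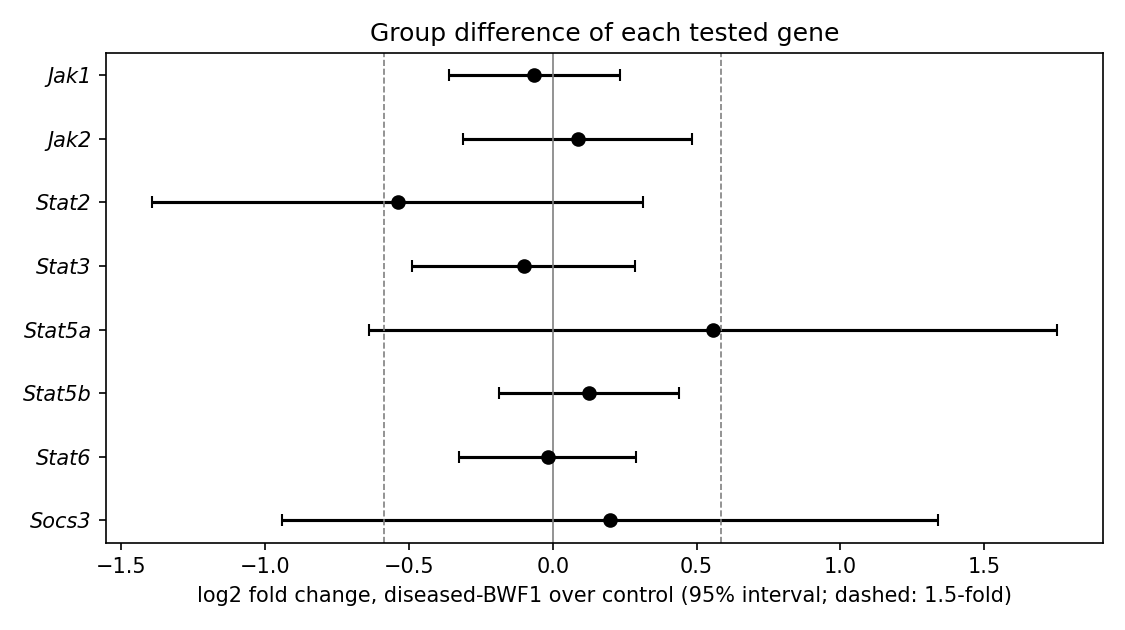
Log2 fold change of diseased-BWF1 over control mice for the 8 genes tested (points) with 95% intervals derived from edgeR's F statistic (bars). Dashed lines mark a 1.5-fold change. All intervals include 0, and those of Stat2, Stat5a and Socs3 cross the dashed lines.

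Exact two-sided permutation tests on log2 normalized counts, 1 for each member, gave p values from 0.4 to 1.0.

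Levels were compared between members only per transcript length, as normalized counts per kilobase of the most counted curated record. In control mice and diseased-BWF1 mice, Stat6 had 245 ± 15.6 and 243 ± 25.6, Jak1 203 ± 14.0 and 194 ± 14.0, Stat3 203 ± 37.9 and 190 ± 10.3, and Socs3 185 ± 111 and 213 ± 80.9 normalized counts per kilobase (mean ± SD, n = 3 each). Stat5b followed at 88.8 ± 7.45 and 97.2 ± 10.3 per kilobase, Jak2 at 58.9 ± 12.3 and 62.8 ± 3.52 and Stat2 at 66.3 ± 34.1 and 45.8 ± 2.91. Stat5a had 11.4 ± 5.74 and 16.9 ± 10.1 per kilobase, and Socs1 was below 2 in every mouse. Neighbours in this order did not all differ beyond the spread between mice. By the mean of all 6 mice the order was Stat6, Socs3, Jak1, Stat3, Stat5b, Jak2, Stat2, Stat5a and Socs1. The ranges of neighbours overlapped between Stat6 and Socs3, Socs3 and Jak1, Jak1 and Stat3, and Jak2 and Stat2, although Stat6 (226 to 272 per kilobase) did not overlap Jak1 (182 to 218 per kilobase). They did not overlap between Stat3 and Stat5b, Stat5b and Jak2, Stat2 and Stat5a, or Stat5a and Socs1.

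The genes around the members were described with 10 lists of the pathway that held 132 genes, of which 101 were tested. Of these, 1 was called higher and 1 lower, that is 1.98% of the genes tested, beside 1.22% over all genes. Estimates were higher in diseased-BWF1 mice for 70 and lower for 31, with a median log2 fold change of 0.17. Over all genes tested, the estimates were higher for 5343 and lower for 5162. DESeq2 called 12 genes of these lists, that is 10.5% of the 114 to which it gave an adjusted p, beside 2.91% over all genes. An unadjusted edgeR p under 0.05 was found for 23 genes, that is 22.8%, beside 13.2% over all genes. The receptor gene Ifnar2 and several genes of the lists of STAT3 targets, STAT6 targets and immediate early genes were also among those that the study selected from these libraries, so the direction of these lists is not independent evidence.

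**Figure D4:**
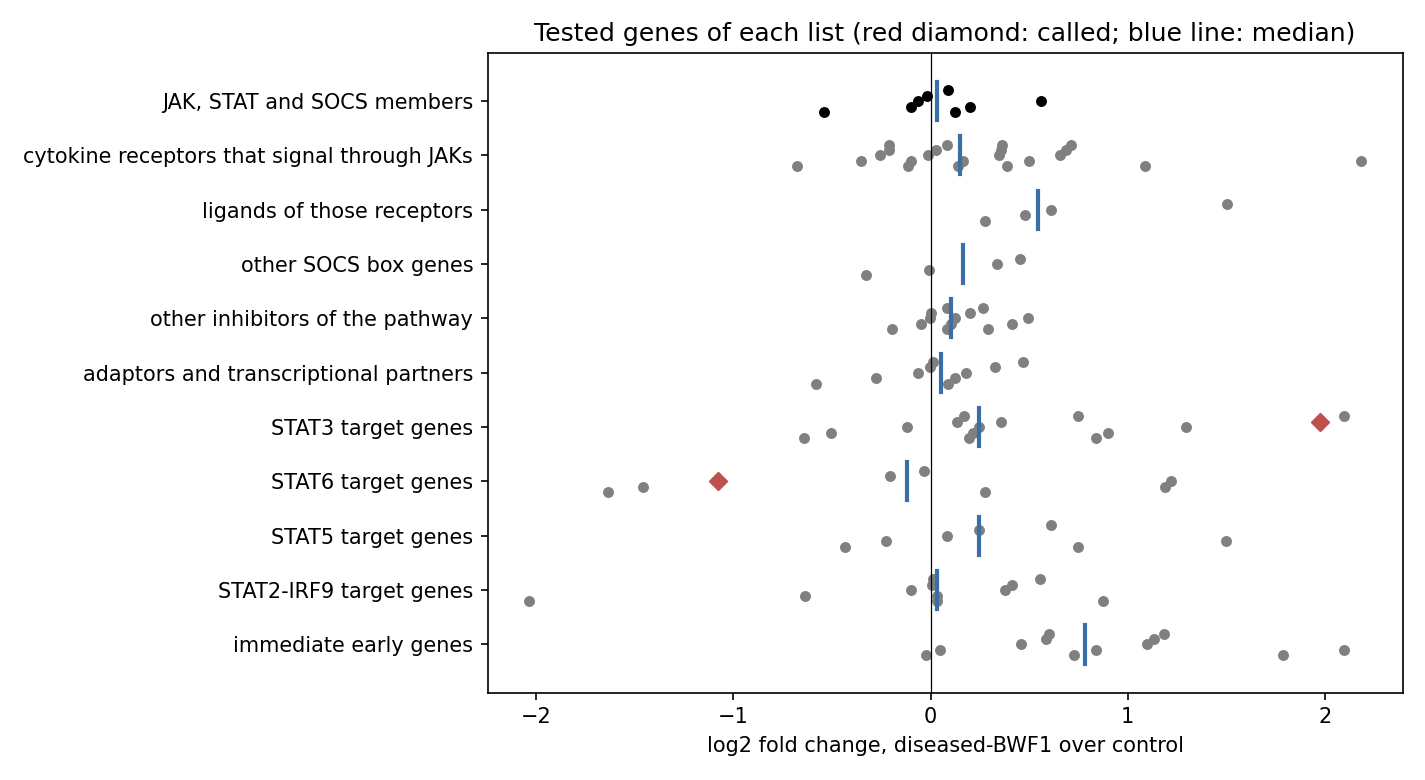
Log2 fold change of diseased-BWF1 over control mice (horizontal axis) for the tested genes of each list; each point is a gene, blue lines are medians and red diamonds mark the genes called by edgeR. The members cluster near 0 with a median of 0.03, and the only diamonds are Hp among STAT3 target genes and Mrc1 among STAT6 target genes.

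Among 27 cytokine receptors that signal through JAKs, 22 were tested, 0 were called and the median log2 fold change was 0.15. Ifnar2, the signalling chain of the type I interferon receptor, had 832, 804 and 926 normalized counts in control mice and 565, 568 and 474 in diseased-BWF1 mice. The groups did not overlap, but the log2 fold change of -0.68 (SE 0.14) had an edgeR adjusted p of 0.073 and a DESeq2 adjusted p of 0.00156. Ifnar2 shared 7.09% of its 75-base sequences with the gene Gm21970. The chain Csf2rb2, a receptor subunit for IL-3, had a log2 fold change of 0.71 (SE 0.18, edgeR adjusted p = 0.133) and shared 10.6% of its sequences with Csf2rb.

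Ligands of those receptors were mostly too low to test. Only 4 of 17 passed the filter, none was called and their median log2 fold change was 0.55, while Ifnb1, Ifng and Il13 had 0 counts in all 6 mice. Ebi3, a subunit of IL-27 and IL-35, had an estimate of 1.503 (SE 0.56, edgeR adjusted p = 0.314). Osm, which encodes oncostatin M, had an estimate of 0.61 (SE 0.42, edgeR adjusted p = 0.595).

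No inhibitor outside the 9 members was called. Of 6 other SOCS box genes, 4 were tested and 0 called, with a median log2 fold change of 0.16, and Cish and Socs2, both STAT5-induced inhibitors, fell below the filter. Socs7 had an estimate of 0.34 (SE 0.14, edgeR adjusted p = 0.356) and Socs6 one of -0.33 (SE 0.17, edgeR adjusted p = 0.465). All 13 other inhibitors of the pathway were tested, 0 were called and their median was 0.10. Sh2b3, the adaptor LNK that restrains JAK2, had an estimate of 0.29 (SE 0.16, edgeR adjusted p = 0.490), and Cbl, a ubiquitin ligase, had 0.49 (SE 0.32, edgeR adjusted p = 0.572).

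All 10 adaptors and transcriptional partners were tested, 0 were called and their median log2 fold change was 0.05. Crebbp, a histone acetyltransferase recruited by STATs, had an estimate of 0.47 (SE 0.14, edgeR adjusted p = 0.207). Nmi, which binds STATs, had -0.58 (SE 0.27, edgeR adjusted p = 0.427).

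Among 16 STAT3 target genes, 15 were tested, 1 was called higher and the median log2 fold change was 0.24. Hp, the plasma protein haptoglobin of the acute phase, rose from 189, 160 and 281 normalized counts in control mice to 726, 739 and 1019 in diseased-BWF1 mice. Its estimate was 1.98 (SE 0.25, edgeR adjusted p = 0.0192). It stayed between 1.81 and 2.24 with each mouse left out, but the edgeR adjusted p was above 0.05 in 5 of these 6 fits, with 0.0816 without control mouse 1, 0.0777 without control mouse 2, 0.0676 without diseased-BWF1 mouse 1, 0.0514 without mouse 2 and 0.0504 without mouse 3. For Hp it was 0.0595 with curated mRNA records alone. Junb, a subunit of AP-1, had an estimate of 0.84 (SE 0.15, edgeR adjusted p = 0.0523). DESeq2 called 4 genes of this list, all higher.

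Of 15 STAT6 target genes, which mark alternatively activated macrophages, 8 were tested, 1 was called lower and the median log2 fold change was -0.12. Mrc1, the mannose receptor CD206, fell from 2250, 2207 and 2242 normalized counts in control mice to 1030, 841 and 1310 in diseased-BWF1 mice. Its estimate was -1.08 (SE 0.18, edgeR adjusted p = 0.044). With each mouse left out it stayed between -1.25 and -0.93, but the call was kept only without diseased-BWF1 mouse 3. The edgeR adjusted p was 0.121, 0.141 and 0.0905 without control mice 1, 2 and 3, and 0.167 and 0.0998 without diseased-BWF1 mice 1 and 2. For Mrc1 it was 0.0543 with age as a covariate and 0.111 with curated mRNA records alone. Tgm2, a transglutaminase, had an estimate of 1.19 (SE 0.23, edgeR adjusted p = 0.0718), so the members of this list did not share a direction, and DESeq2 called 1 higher and 2 lower. Stat6 itself had the estimate of -0.02 given above.

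Of 10 STAT5 target genes, 7 were tested and 0 called, with a median log2 fold change of 0.25. Pim1, a serine/threonine kinase, had an estimate of 0.75 (SE 0.20, edgeR adjusted p = 0.157), and Ccnd2, cyclin D2, had 1.498 (SE 0.54, edgeR adjusted p = 0.295).

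Of 12 STAT2-IRF9 target genes, the interferon-stimulated genes, 11 were tested and 0 called, with a median log2 fold change of 0.03. Ifi44 had 308, 78.2 and 54.0 normalized counts in control mice and 45.3, 51.7 and 11.1 in diseased-BWF1 mice. These groups did not overlap, and the log2 fold change was -2.03 (SE 0.76, edgeR adjusted p = 0.314). Isg15, a ubiquitin-like protein, had an estimate of 0.88 (SE 0.59, edgeR adjusted p = 0.587).

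Differences between single mice were wide in this list. The mean log2 normalized count over its tested genes was 6.99, 5.81 and 5.49 in control mice and 6.28, 6.81 and 5.28 in diseased-BWF1 mice. Control mouse 1, the control with the most Stat2, was also the highest control for all 11 genes tested. Control mouse 2, the control with the least Stat2, was the lowest control for 5 of 11. In diseased-BWF1 mice Stat2 hardly varied. Mouse 1, with the most Stat2 in that group, was its highest mouse for 1 of 11 genes. Mouse 2, with the least, was its lowest for 0 of 11. The partner Irf9 had a log2 fold change of 0.09 (SE 0.16, edgeR adjusted p = 0.853).

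**Figure D5:**
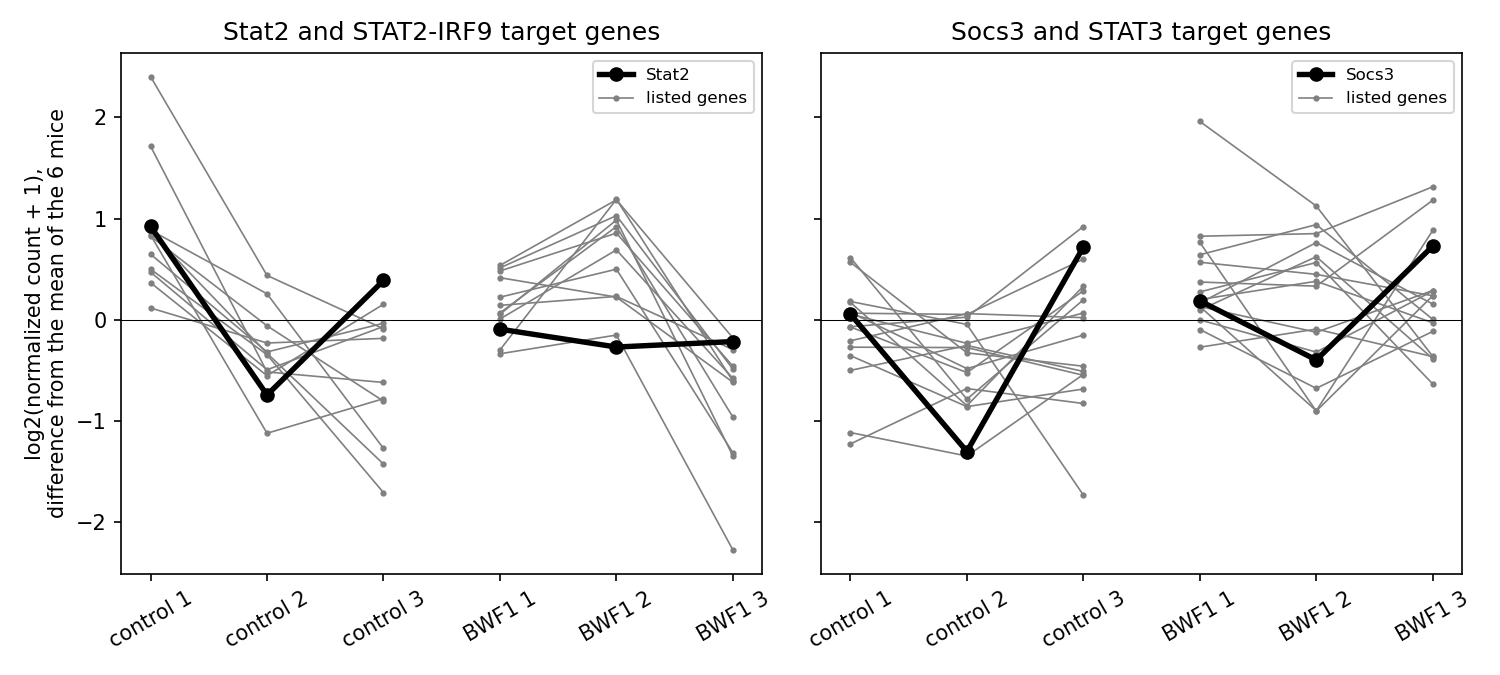
Log2(normalized count + 1) minus the mean of the 6 mice (vertical axis) in each mouse (horizontal axis; BWF1 is diseased-BWF1), for Stat2 with 11 STAT2-IRF9 target genes and for Socs3 with 15 STAT3 target genes; thick lines are the members and thin lines the listed genes. In control mouse 1 the interferon-stimulated genes and Stat2 are above the other controls. Over the other mice the interferon-stimulated genes do not share the order of Stat2, and the STAT3 target genes show no common order with Socs3.

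The STAT3 target genes had no common order with Socs3 either, and the agreement seen for Stat2 was in control mouse 1 only. The control with the most Socs3, mouse 3, was the highest control for 6 of 15 genes, and the control with the least, mouse 2, was the lowest for 8 of 15. In diseased-BWF1 mice the numbers were 5 of 15 and 6 of 15.

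Of 13 immediate early genes, which respond within minutes to many stimuli, 12 were tested and edgeR called 0, with a median log2 fold change of 0.78. DESeq2 called 6 of 13 higher, beside 2.91% of all genes in either direction, and Junb and Fos are also in the list of STAT3 targets. The mean log2 normalized count over the tested genes was 7.75, 8.17 and 7.85 in control mice and 9.22, 8.83 and 8.26 in diseased-BWF1 mice. The groups did not overlap in this mean. Gene by gene they did not overlap for 4 of the 12 tested, beside 20.8% of all genes tested. As for the other genes of the list, the groups overlapped for Socs3, itself a rapidly induced gene. Ier2 had an estimate of 0.73 (SE 0.14, edgeR adjusted p = 0.0699).

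The genes whose levels followed Socs3 most closely over the 6 mice were Tubb6 (Pearson r 0.987), Sbno2 (0.986) and Hnrnpul2 (0.984), of 7360 genes with a mean of at least 50 normalized counts. Sbno2 is also in the list of STAT3 target genes, and had 717, 525 and 919 normalized counts in control mice and 825, 692 and 921 in diseased-BWF1 mice. The study listed Sbno2 among its upregulated genes. From the counts summed per gene, the estimate here was 0.17 (SE 0.22, edgeR adjusted p = 0.793). The reason for this difference was not tested. For Stat2 the closest were Casp4 (0.982), Apeh (0.957) and C130050O18Rik (0.955). With 6 points that share group, library and depth, these values only describe the libraries, and 59 genes had an r over 0.9 with Socs3 and 13 with Stat2.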

How the data were processed

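PMs of 3 control and 3 diseased-BWF1 mice were sequenced with stranded paired-end reads (per the methods). The authors deposited raw counts per RefSeq transcript record, 1 file per mouse, without normalization. The submitters' processing notes name Salmon 0.8.0, DESeq2 and GRCm38.p6 and give them no role, and how reads shared by records were divided is not given in the sources used here. Of 107193 records, 20727 matched no gene and were left out, and the rest were summed per gene. Groups came from the sample titles.

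The tests used R 4.3.3, edgeR 4.0.16 (filterByExpr, TMM, glmQLFit and glmQLFTest, 10505 genes, common dispersion 0.0543), with DESeq2 1.42.0 and limma 3.58.1 voom as alternatives. Normalized counts used DESeq2's size factors, 0.871 to 1.21. Single members were also tested with an exact permutation test. The code was tested on simulated data. The members, lists and tests were chosen with earlier results of these data known. Of each pathway list, the genes called and the 2 with the smallest p were named, and other genes named (such as Irf9, Timd4 and Icam2) were chosen after their values were seen. The 3 genes closest to Socs3 and to Stat2 by correlation were also named. Of 182 genes in the lists, 180 were in the table, and some values of the marker lists are not reported here. Shared 75-base sequences were counted over GENCODE vM21 transcripts. P-values measure the spread between mice, 1 library each.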

Additional observations from a re-analysis of the deposited data

How the results depend on the processing

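The number of members called was 0 in all 16 alternatives. Of 128 estimates of single members under an alternative, 8 changed sign, all with 1 mouse left out, and none passed the threshold. With each mouse left out, the log2 fold change ranged from -0.12 to -0.01 for Jak1, -0.07 to 0.18 for Jak2, -0.87 to -0.13 for Stat2, -0.24 to 0.01 for Stat3, -0.04 to 0.99 for Stat5a, 0.05 to 0.19 for Stat5b, -0.10 to 0.03 for Stat6 and -0.18 to 0.71 for Socs3. The estimates that changed sign were those of Jak2 (-0.073) and Stat3 (0.0113) without control mouse 3, Stat5a (-0.0406) without diseased-BWF1 mouse 1, Stat6 without control mouse 2 (0.0187), diseased-BWF1 mouse 1 (0.0267) or mouse 2 (0.0243), and Socs3 without control mouse 2 (-0.1786) or diseased-BWF1 mouse 3 (-0.115). With curated mRNA records alone, where control mice 2 and 3 had 0 Stat5a counts, the Stat5a estimate lay above its range given here. It was 1.754 (SE 1.465, edgeR adjusted p = 0.762) in edgeR and 1.818 (SE 1.791, DESeq2 adjusted p = 0.982) in DESeq2. With each mouse left out, the difference in the Stat5a share ranged from -0.895 to 5.35 percentage points, negative without diseased-BWF1 mouse 1.

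Over the whole table, the count of 128 called genes became 365 with DESeq2, 259 without the low-count filter, 84 with at least 10 counts in every library, 16 with curated mRNA records alone in edgeR and 256 with them in DESeq2, and 21 to 51 with 1 mouse left out. For the pathway lists the count of 2 became 12 with DESeq2, 9 without the filter, 0 with curated records in edgeR and 11 in DESeq2, and 0 to 2 with 1 mouse left out. The cause was not tested.

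The labels give mice with the same number nothing else in common, and whether such mice were handled together is not stated in the sources used here. The correlations of their deviations were 0.107, 0.001 and 0.152, and 4 of 6 mice correlated best with their own number. With the replicate block the called genes numbered 38 over the whole table, 1 in the pathway lists and 0 among the members. The gene lost from the lists was Mrc1 (edgeR adjusted p = 0.0826). Among the members, the block lowered the SE of Stat5a from 0.51 to 0.21 (edgeR adjusted p = 0.365). It lowered that of Socs3 from 0.49 to 0.21 (edgeR adjusted p = 0.567). The SE also fell for Stat2 and rose for Jak1, Jak2, Stat3, Stat5b and Stat6.

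Depth limits Socs1, with 0 to 5 counts per mouse. Each group has 3 mice, and the exact test cannot give a p under 0.1.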
